A study of Mus musculus with 4 samples.

Results

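The 34 genes described here are macrophage and other white blood cell genes, read in cells sorted as primordial germ cells from mouse genital ridges. They were chosen as a list of 35 known leukocyte genes, from surface receptors to lysosomal enzymes. One probe per gene was used, the one with the highest mean log2 signal over the 4 arrays. Of the 35 listed genes 34 had a named probe, out of 18322 genes with a measured one in the series, and Cd68 had none. The study asked how loss of HP1γ, a heterochromatin protein encoded by Cbx3, changes gene expression in primordial germ cells, the precursors of eggs and sperm.

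Embryos were at embryonic day 11.5. Wild-type and HP1γ-null embryos both carried a Blimp1-mVenus transgene, in which the promoter of Blimp1 (Prdm1) drives a yellow fluorescent protein, and cells positive for it were collected in a flow cytometer. The null allele (HP1g-/-) was made by a gene-trap method, and null embryos came from crosses between heterozygous mice. Each RNA sample pooled sorted cells of 5 or 6 embryos of 1 genotype, at 500 to 3500 cells per embryo, and 2 independent pools per genotype were hybridised to 1 one-colour Agilent array each. A level is the log2 processed signal with that of the 75th percentile of its array subtracted, so 0 marks that percentile. Levels of different probes are not comparable, and differences are null minus wild type of the same probe.

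Macrophages reach embryonic organs early, first from the yolk sac, and clear dying cells and debris. They depend on the growth factor receptor Csf1r and the transcription factor PU.1 (Spi1), and they carry the pan-leukocyte phosphatase CD45 (Ptprc). Fc receptors bind antibody, C1q starts the classical complement cascade, and scavenger receptors take up modified proteins, lipids and haemoglobin. Many of these receptors signal through the small adaptors Fcer1g and Tyrobp (DAP12).

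Markers of other cell types were measured beside those of germ cells. Between 53.3% and 63.3% of spots were well above background, the scanner software's mark for a measurable spot, and the 75th percentile lay between 125 and 291 intensity units. Of 10 germ cell genes with a probe, 9 were tested, and their median level was -0.59 and -1.55 in wild-type replicates 1 and 2 and 0.92 and -5.91 in the null pools. Of the 9 genes, Dppa3, Pou5f1, Ddx4, Dazl, Tfap2c and Sox2 missed that mark in null replicate 2, while Prdm1, Dnd1 and Sall4 did not. Their median on that array is thus a signal below background. That array stands apart, and the median difference of the 34 genes and the differences of 19 of them were also computed without it. Stromal genes stood apart there too, with a summed linear level of 151 over 11 genes, against 67.5 to 92.5 on the other arrays. The 14 endothelial genes had median levels of 3.92 and 4.04 in wild type and 3.37 and 3.56 in the null pools.

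Macrophage and leukocyte genes were measurable in every pool. Of the 34 genes, 32 were well above background on all 4 arrays, the exceptions being Cd163 and Sh2d1b1, and none was saturated. Their median level was 3.34 and 3.58 in wild-type replicates 1 and 2 and 3.34 and 3.48 in null replicates 1 and 2. Their summed linear level was 749 and 862 in wild type and 762 and 636 in the null pools, lowest in null replicate 2. Where 7 of 9 germ cell genes ranged over more than 2 log2 units, 30 of the 34 leukocyte genes kept within 1 log2 unit over the 4 arrays. The median range per gene was 0.59, against 6.26 for the 9 germ cell genes and 0.63 for all 22440 probes tested, of which 75.9% kept within 1 log2 unit. The germ cell figure takes signals below background in null replicate 2 as they are, so its size is uncertain. Prdm1, Sall4 and Dnd1, well above background on all arrays, had ranges of 0.83, 0.96 and 3.82. A range over 2 log2 units was seen for 3 of the 34 genes and 5.62% of all probes. Among brighter probes, with a mean level of at least 2, 20 of 20 leukocyte genes and 92.8% of 4436 probes kept within 1 log2 unit, and 19 of 20 and 92% had means within 0.5 log2 units. The range of the leukocyte genes is thus close to that of other bright probes. Stromal genes, like most germ cell genes, ranged widely, with a median range of 2.95 and 9 of 11 over 2 log2 units. In pooled cells, fewer cells of a type and less RNA per cell cannot be told apart.

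**Figure D1:**
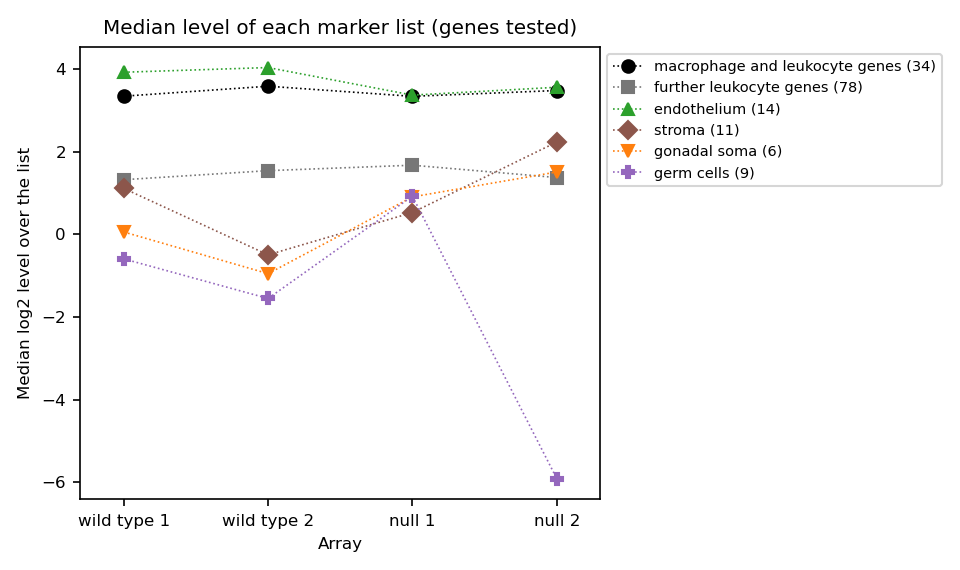
Median log2 level of each marker list on each of the 4 arrays, with the number of tested genes in brackets; dotted lines join arrays for the eye only. The median of the macrophage and leukocyte genes lies between 3.34 and 3.58 on every array. That of the germ cell genes is -5.91 in null replicate 2, a signal below background.

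No macrophage or leukocyte gene passed the test between genotypes. The test was limma over all 22440 probes with an adjusted p threshold of 0.05, which called 0 of the 34 genes, against 0.00891% of all probes (2, Cbx3 among them, both lower). The smallest adjusted p among the 34 was 0.13, and 5 had an unadjusted p under 0.05, where 7.51% of all probes did. Cd163, Cxcl16 and Sh2d1b1 entered the list with their differences already known, and without them 2 of 31 genes had such a p. The means of 28 genes (82.4%) lay within 0.5 log2 units of each other, against 80.3% of all probes. In 24 genes the null mean was the lower one, which is 70.6%, against 58.3% of all probes. The median difference was -0.14, against -0.06 over all probes. Both null arrays lay below both wild-type arrays for 13 genes (38.2%, against 23.0% of all probes) and above them for 1 gene (2.94%, against 15.1%). The count of 13 became 25 without wild-type replicate 1 and 21 without null replicate 1, where 34.2% and 50.2% of all probes did the same. It was 13 without wild-type replicate 2 and 16 without null replicate 2, against 31.2% and 42.6% of all probes. Scaling to spiked-in control RNA in place of the 75th percentile made it 24, with 62.1% of all probes, because the median difference of all probes then moved to -0.61.

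**Figure D2:**
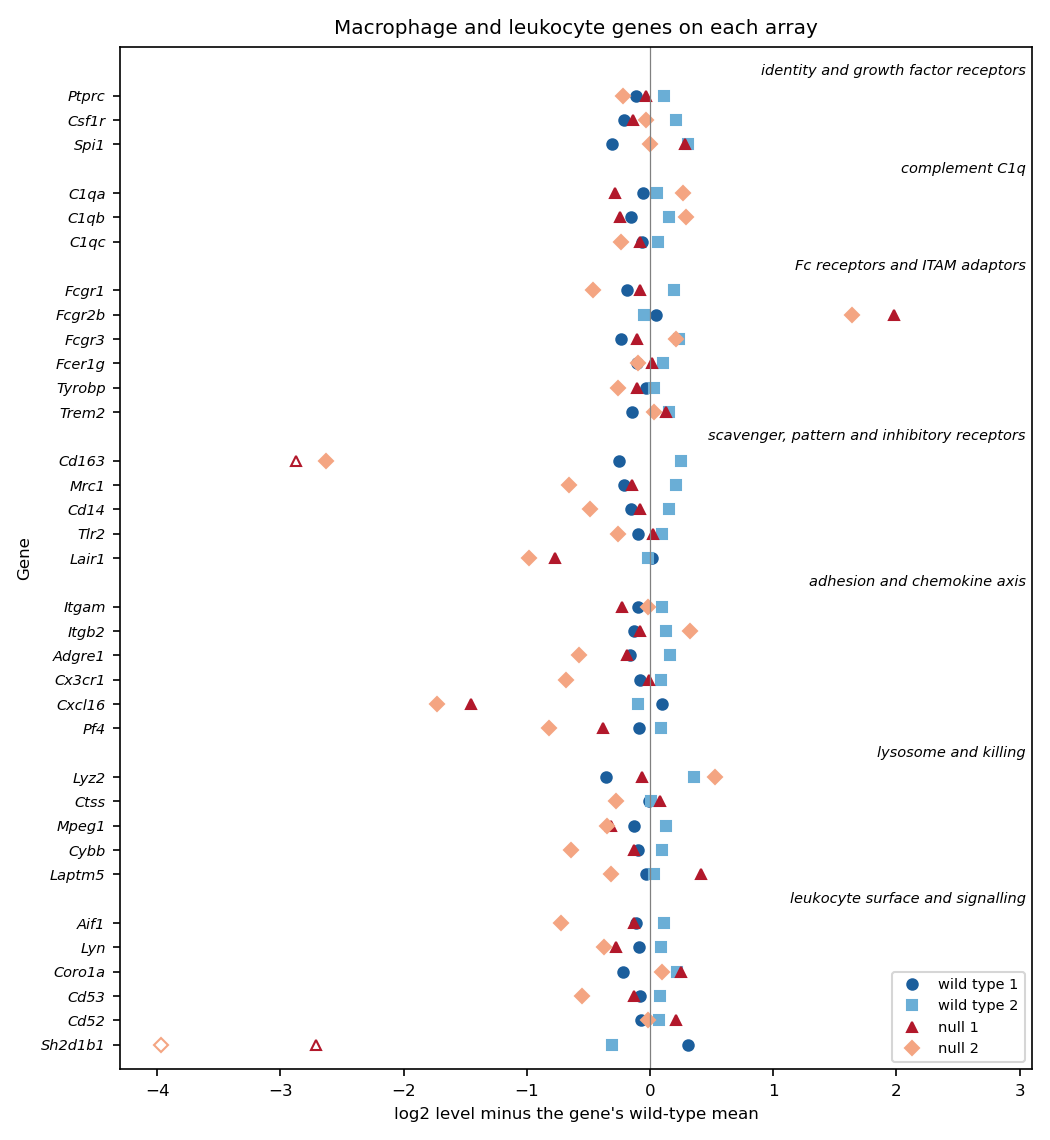
Each point is 1 array's log2 level of a gene minus that gene's wild-type mean, with genes grouped by role; open symbols were not well above background. Most genes lie within 1 log2 unit, while Fcgr2b is higher and Cd163, Cxcl16, Lair1 and Sh2d1b1 are lower in both null pools.

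Several genes that define leukocytes and macrophages had overlapping arrays. Ptprc read 2.74 and 2.96 in wild type and 2.82 and 2.64 in the null pools (difference -0.13, SE 0.21). Csf1r read 3.81 and 4.24 against 3.89 and 4.00 (difference -0.08, SE 0.24). These values show no order by genotype. The 2 further probes of Ptprc differed by -0.33 and -0.26, and those of Csf1r by -0.28 and -0.42, with overlapping arrays. Spi1, which encodes PU.1, was dim by its probe, at -3.41 and -2.79 in wild type and -2.81 and -3.10 in the null pools (difference 0.14). The F4/80 gene Adgre1, a classical surface marker of mouse macrophages, read 4.99 and 5.31 in wild type and 4.96 and 4.58 in the null pools. That is a difference of -0.38 with SE 0.25 (limma adjusted p = 0.82), and the upper null value is only just below the lower wild-type one. Itgam, the CD11b integrin chain, read -0.40 and -0.21 against -0.53 and -0.32, and its second probe went the other way, by 0.24. Its partner Itgb2 differed by 0.12.

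The 3 chains of complement C1q, which macrophages secrete, differed by less than their standard errors. C1qa read 3.23 and 3.35 in wild type and 3.01 and 3.56 in the null pools, and C1qb 3.33 and 3.64 against 3.24 and 3.78. Both genes had their lowest and their highest value in the 2 null pools, so the null pools enclosed wild type. C1qc read 5.89 and 6.02 in wild type and 5.88 and 5.73 in the null pools, a difference of -0.16. The 3 differences lay between -0.16 and 0.03, with SE of 0.20 to 0.28.

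Among Fc receptors, Fcgr2b stood apart. It encodes FcγRIIB, the inhibitory receptor for IgG, which damps signals of the activating receptors. By its brightest probe it read -1.45 and -1.55 in wild type and 0.47 and 0.14 in the null pools. Both null arrays were far above both wild-type arrays, and by the chosen probes Fcgr2b was the only 1 of the 34 genes with both null arrays higher. Its means were -1.50 ± 0.07 and 0.31 ± 0.24 (SD, n = 2 each), a difference of 1.81 with SE 0.22, or 3.50-fold, which missed the threshold (limma adjusted p = 0.19). The further 2 probes read -2.40 and -2.76, and -2.68 and -3.29, in wild type. In the null pools the same probes read -0.54 and -0.89, and -1.04 and -1.11, so they differed by 1.86 and 1.91. The 3 probes measure the same RNA of the same 4 pools and are not replicates. Leaving out null replicate 1 or 2 gave 1.64 and 1.98. With background correction by normexp, which adds an offset, it was 1.22. A gain of at least 2-fold without overlap was seen for 3.92% of all probes, and for 1 of these 34 genes.

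The activating Fc receptors and the adaptors differed by far less. Fcgr1, the high-affinity IgG receptor, differed by -0.27, and Fcgr3, the low-affinity activating receptor, by 0.05. Fcgr3 read 1.61 and 2.08 in wild type and 1.73 and 2.06 in the null pools, which overlap throughout. The extracellular parts of Fcgr2b and Fcgr3 are close in sequence, and probe sequences were not used here, so cross-hybridisation was not tested. Fcer1g, the common γ chain of Fc receptors, was the steadiest gene, at 5.82 and 6.03 against 5.94 and 5.82. Tyrobp read 6.35 and 6.41 in wild type and 6.28 and 6.12 in the null pools (difference -0.18), and Trem2, a lipid receptor that signals through it, differed by 0.08.

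Markers of other cells that moved with Fcgr2b are given beside it. Among gonadal somatic genes measured on all arrays, Krt18 differed by 3.22, Amhr2 by 2.14 and Cbx2 by 0.47 without overlap, and Wt1 by 1.00 with overlap. Wnt4 and Krt19 were not well above background in wild type and at least 3.02-fold and 11.6-fold higher in the null pools. The summed linear level of the list, over 11 genes, was 6.01 and 4.24 in wild type and 28.9 and 17.2 in the null pools. Krt18 was the largest single term of both null sums, at log2 levels of 4.38 and 2.68, so the sums do not describe the list evenly. The gonadal transcription factor genes Gata4, Nr5a1, Lhx9 and Emx2 were well above background on at most 2 arrays. B cells also express Fcgr2b. Of the 8 B cell genes with a probe, 5 were well above background on no array, among them Ms4a1 and Pax5. The other B cell genes, Cd79b, Ebf1 and Vpreb1, were so on all arrays and differed by 0.00, -0.50 and 0.26. The part of gonadal somatic cells or of B cells in the difference of Fcgr2b was not tested.

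Promoter sequences are shown for Fcgr2b, Fcgr3 and the adaptor gene Fcer1g because Fcgr2b moved apart from the other Fc receptor genes. They come from the RefSeq annotation of GRCm38.p6 and run 5′ to 3′ on the gene's strand, over the 250 bases before the start site. Capitals mark GAGGAA, the core of the PU box bound by PU.1, or its reverse complement TTCCTC. Fcgr2b lies at chr1:170976072-170976321 and Fcgr3, by the first of its listed starts, at chr1:171059404-171059653, and Fcer1g at chr1:171234350-171234599, each on the minus strand.
Fcgr2b: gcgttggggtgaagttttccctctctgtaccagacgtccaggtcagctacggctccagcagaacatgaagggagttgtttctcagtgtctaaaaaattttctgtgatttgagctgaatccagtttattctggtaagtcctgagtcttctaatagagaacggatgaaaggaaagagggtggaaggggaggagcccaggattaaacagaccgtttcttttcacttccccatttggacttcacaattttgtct
Fcgr3: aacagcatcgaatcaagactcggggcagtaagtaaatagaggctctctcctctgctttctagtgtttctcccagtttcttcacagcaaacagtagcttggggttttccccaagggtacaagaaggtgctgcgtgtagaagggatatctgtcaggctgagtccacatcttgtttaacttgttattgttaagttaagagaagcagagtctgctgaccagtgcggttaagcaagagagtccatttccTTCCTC
Fcer1g: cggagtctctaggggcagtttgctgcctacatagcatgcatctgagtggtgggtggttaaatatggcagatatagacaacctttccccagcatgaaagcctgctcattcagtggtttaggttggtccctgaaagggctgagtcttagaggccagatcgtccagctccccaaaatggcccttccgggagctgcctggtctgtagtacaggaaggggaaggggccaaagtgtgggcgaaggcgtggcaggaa
Fcgr3 held 1 match, 6 bases before the start site, and the windows of Fcgr2b and Fcer1g held none. The window of Fcgr1, which is not shown, held the motif too. Of the 34 genes 24 had a promoter entry, and 15 of these (62.5%) held the motif on either strand, against 23.1% of 27025 genes. A match describes letters in this window and not a bound site.

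Scavenger, pattern and inhibitory receptors were lower by mean in the null pools in 5 of 5 genes, 2 of them without overlap, against 58.3% and 23.0% of all probes. Cd163, the macrophage receptor for haemoglobin bound to haptoglobin, read -1.75 and -1.25 in wild type. On the array of null replicate 1 it was not above background by the scanner mark, with a signal of -4.37, while null replicate 2 read -4.13. Both null arrays were thus far below both wild-type arrays, and 3 of the 34 genes (Cd163, Cxcl16 and Sh2d1b1) were lower without overlap by at least 2-fold, against 1.07% of all probes. Its means were -1.50 ± 0.35 and -4.25 ± 0.17 (SD, n = 2 each), a fitted difference of -2.75 with SE 0.27 (limma adjusted p = 0.13, not called). The fit takes the signal below background as it is, so the size is uncertain. Cd163 and Sh2d1b1 were tested only for their wild-type signal, the genotype in which they were high. Cd163, Cxcl16 and Sh2d1b1 entered the list with their differences already known, so this count and their differences are a description. Normexp made the Cd163 difference -0.79, while scaling to spiked-in RNA or centring the arrays on these leukocyte genes gave an adjusted p of 0.0014 and 0.030, in a range of 0.0014 to 1.00 over its alternatives.

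Lair1, an inhibitory receptor that binds collagen, read 0.46 and 0.43 in wild type and -0.32 and -0.53 in the null pools. The wild-type arrays nearly coincided and the null arrays were both lower. For Lair1 the difference was -0.87 (SE 0.20, limma adjusted p = 0.50). On its second measurable probe it was -1.26, at -0.24 and -0.21 against -1.46 and -1.51, and its dimmest probe was above background on no array. Scaling to spiked-in RNA made the first of these -1.42. Mrc1, the mannose receptor CD206, read 4.34 and 4.75 in wild type and 4.40 and 3.89 in the null pools (difference -0.40, SE 0.29), low in null replicate 2 alone. The endotoxin co-receptor Cd14 and the lipopeptide receptor Tlr2 differed by -0.28 and -0.12, with overlapping arrays. The promoters of both genes that were lower without overlap are shown for comparison. Lair1 lies at chr7:4063205-4063454 on the minus strand and Cd163 at chr6:124304401-124304650 on the plus strand.
Lair1: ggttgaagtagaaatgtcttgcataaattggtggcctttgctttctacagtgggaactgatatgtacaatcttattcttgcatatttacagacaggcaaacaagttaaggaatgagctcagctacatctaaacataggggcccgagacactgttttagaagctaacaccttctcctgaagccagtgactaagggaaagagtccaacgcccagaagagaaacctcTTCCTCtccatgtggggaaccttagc
Cd163: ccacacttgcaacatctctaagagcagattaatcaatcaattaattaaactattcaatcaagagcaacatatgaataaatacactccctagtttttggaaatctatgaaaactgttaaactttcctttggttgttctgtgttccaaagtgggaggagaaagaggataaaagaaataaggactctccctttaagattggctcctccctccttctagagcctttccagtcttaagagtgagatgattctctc
The Lair1 window held 1 match to the motif, 26 bases before the start site, and that of Cd163 held none.

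Of the further leukocyte genes, Marco had the smallest p. This scavenger receptor gene read -0.93 and -1.04 in wild type and -1.99 and -2.58 in the null pools, a difference of -1.30 (limma adjusted p = 0.47). Cd36, a fatty acid and lipoprotein receptor, read -0.45 and -0.07 against -1.05 and -1.47, and Msr1 differed by -0.67 without overlap (limma adjusted p = 0.54 and 0.63). These 2 genes were picked after their values were seen. Endothelial cells also express Cd36, Lyve1 and Stab1. Endothelial genes were lower by mean in 14 of 14, 13 without overlap, against 58.3% and 23.0% of all probes, with a median of -0.61 and a summed linear level of 434 and 478 in wild type against 251 and 325 in the null pools. The part of endothelial cells in these differences was not tested.

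Chemokine and adhesion genes held another low gene. Cxcl16, a membrane-bound chemokine and scavenger receptor for oxidised lipids, read -1.49 and -1.68 in wild type and -3.04 and -3.31 in the null pools. It was well above background on all 4 arrays and did not overlap, with a difference of -1.59 and SE 0.22, or 3.01-fold (limma adjusted p = 0.24). Its second probe differed by -1.17 and normexp made the difference -0.59, while with spiked-in RNA it was -2.14 and passed (adjusted p = 0.023, in a range of 0.023 to 1.00 over its alternatives). The fractalkine receptor gene Cx3cr1 read 3.36 and 3.53 in wild type and 3.44 and 2.76 in the null pools, so null replicate 2 alone was low. Pf4, platelet factor 4, which megakaryocytes and macrophages express, read 6.91 and 7.08 in wild type and 6.61 and 6.17 in the null pools (difference -0.60, SE 0.25, limma adjusted p = 0.69). Of 10 megakaryocyte and platelet genes 4 were well above background on all arrays. Of the 5 tested, 4 had higher null means, where 58.3% of all probes had lower ones. Gp1bb, tested only for its null signal, differed by 0.61 without overlap (limma adjusted p = 0.79). Ppbp differed by 0.67 with overlap, high in null replicate 1 alone (limma adjusted p = 0.89).

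**Figure D3:**
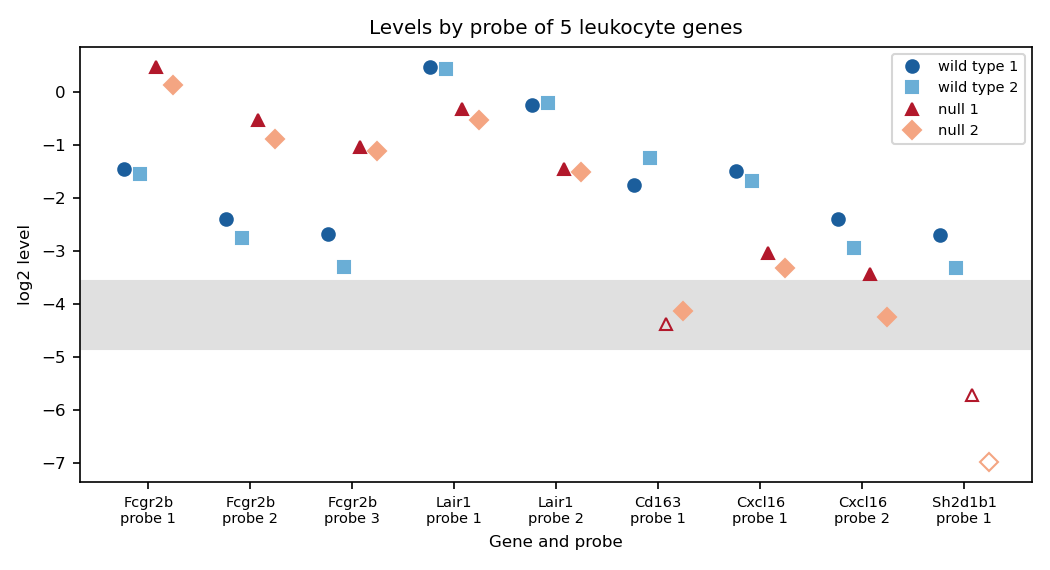
Log2 level on each array of each measurable probe of Fcgr2b, Lair1, Cd163, Cxcl16 and Sh2d1b1; open symbols were not well above background, and the grey band spans the level of the dimmest measurable probe over the 4 arrays. The 3 probes of Fcgr2b are higher in both null pools, and those of Lair1, Cd163, Cxcl16 and Sh2d1b1 are lower.

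Lysosomal and antimicrobial genes differed little. Lyz2, lysozyme M, read 0.24 and 0.95 in wild type and 0.53 and 1.12 in the null pools. Its wild-type replicates were further apart than the genotype means, which differed by 0.23. The protease gene Ctss differed by -0.10, Laptm5, a lysosomal membrane protein gene of blood cells, by 0.05, the pore-forming Mpeg1 by -0.33 and Cybb, the oxidase subunit gp91phox, by -0.39. Mpeg1 and Cybb were lower in the null pools without overlap on these probes, but their second probes overlapped. Of 18 tested further probes of the 34 genes, 16 had the sign of the chosen probe. The other 2, of Itgam and Laptm5, belonged to genes with differences near 0.

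Of 6 genes of leukocyte surface and signalling, 4 were lower without overlap, against 23.0% of all probes. Sh2d1b1 encodes EAT-2, an SH2 adaptor of SLAM-family receptors. It read -2.69 and -3.32 in wild type and was not well above background on either null array, with signals of -5.72 and -6.97. Since the null level is only a limit, Sh2d1b1 was at least 2.29-fold lower (limma adjusted p = 0.28). For this bound each null array enters at the dimmest measurable probe's level, or at the probe's own where that is higher. Normexp made its fitted difference -0.50, and with spiked-in RNA it passed (adjusted p = 0.00020, in a range of 0.00020 to 1.00 over its alternatives). Aif1, the macrophage actin-bundling protein Iba1, differed by -0.42, Lyn, a Src-family kinase, by -0.32 and Cd53, a tetraspanin, by -0.34. The second probes of Aif1 and Lyn were also lower in both null pools, by -0.32 and -0.30. Coro1a, an actin regulator of leukocytes, and Cd52, a small surface glycoprotein, differed by 0.17 and 0.10. Cd52 read 5.32 and 5.47 against 5.61 and 5.38, among the 3 narrowest ranges with Fcer1g and Tyrobp.

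Null replicate 2 held the lowest value of 20 of the 34 genes, and wild-type replicate 2 the highest of 22. Such counts were not taken over all probes, so whether they are particular to these genes was not tested. Without null replicate 2 the median difference of the 34 genes was -0.11, and 25 had lower null means. For Adgre1, Mrc1 and Cx3cr1 the low mean rested largely on that array. Aif1 was low mainly there by its chosen probe, but its second probe was lower in both null pools. Fcgr2b, Lair1 and Cxcl16 stood apart from wild type in both null pools.

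Other genes of the same cells were compared from lists of known leukocyte genes. Of 86 further leukocyte genes 83 had a probe and 78 were tested, and limma called none in either direction. The null mean was lower in 54 and higher in 24, where 58.3% of all probes had a lower one. The median difference was -0.16, against -0.06 over all probes. Both null arrays lay below both wild-type arrays for 22 genes, which is near the 23.0% of all probes. They lay above for 7 genes, against 15.1%. By limma 6 of the 78 genes fell below 0.05 before adjustment, and so did 7.51% of the 22440 probes. After Marco, the next gene by p was Fgr, a Src-family kinase of myeloid cells. It read -2.93 and -3.33 in wild type and -2.20 and -2.01 in the null pools, a difference of 1.02 (limma adjusted p = 0.50).

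Genes of tissue-resident macrophages were lower by mean in 9 of 10, 6 without overlap and 1 of these at least 2-fold, against 58.3%, 23.0% and 1.07% of all probes. Their median was -0.38, and limma called none (3 at an unadjusted p under 0.05). Ms4a7, a membrane protein gene of macrophages, read 3.38 and 3.46 in wild type and 2.54 and 2.25 in the null pools, a difference of -1.03 (adjusted p = 0.46 by limma). Timd4, the phosphatidylserine receptor Tim-4, read -2.13 and -2.15 against -2.92 and -3.02, a difference of -0.83 (adjusted p = 0.50). Cd209f, a lectin gene, was the exception with 0.50. Among genes of monocytes and neutrophils, 9 of 14 were tested, 3 had null means at least 2-fold higher without overlap (against 3.92% of all probes, and with Ltf tested only for its null signal), and limma called none (3 at an unadjusted p under 0.05). The alarmin gene S100a9 read 5.64 and 5.10 in wild type and 6.35 and 6.52 in the null pools, a difference of 1.07 (limma adjusted p = 0.52). Its partner S100a8 read 3.97 and 3.58 against 4.61 and 5.19, named here after its values were seen. The lactoferrin gene Ltf was at least 1.53-fold higher, being not well above background in wild type (adjusted p = 0.20 by limma). Mpo, the granule enzyme myeloperoxidase, differed by -0.64, and the granule genes Elane, Ctsg and Retnlg were well above background on no array.

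**Figure D4:**
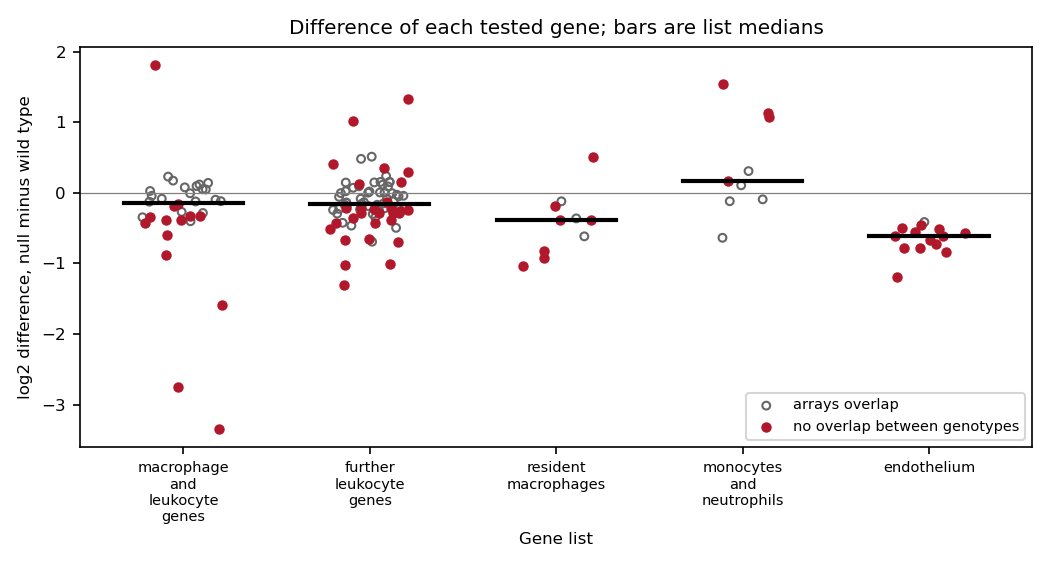
Each point is the log2 difference, null minus wild type, of 1 tested gene; filled points had no overlap between genotypes, and bars are list medians. The medians are -0.14 for the macrophage and leukocyte genes, -0.16 for further leukocyte genes and -0.38 for resident macrophages, against -0.61 for endothelium.

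Lymphoid and mast cell genes were mostly below background. None of 8 NK cell genes could be tested, and 6 of them were well above background on no array. Of 11 T cell genes 3 were measured on all arrays, while Cd3d, Cd3g, Cd2 and Il7r were on none. Lck and Cd5 differed by -0.60 and -0.56 (limma adjusted p = 0.74 for each). Of 8 B cell genes with a probe 3 were measured, Ebf1 with a difference of -0.50, Vpreb1 with 0.26 and Cd79b with 0.00. Of 7 mast cell genes 2 were measured, Cpa3 with a difference of -0.86 (limma adjusted p = 0.63) and Hdc with 0.11. Genes of antigen presentation were dim, with H2-Aa and Ciita on no array. H2-Ab1, an MHC class II chain gene, read -3.28 and -3.05 in wild type and -2.45 and -2.08 in the null pools (difference 0.91, limma adjusted p = 0.53). H2-DMa, which helps load that class, differed by 1.31 (adjusted p = 0.50 by limma). It was tested only for its null signal, being not well above background in wild-type replicate 1, so the size is uncertain.

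The ligands of Csf1r overlapped or were too dim to measure in wild type. Csf1 read -0.93 and -1.05 in wild type and -1.29 and 0.23 in the null pools, and Il34 was at least 1.45-fold higher in the null pools, being not well above background in wild type (limma adjusted p = 0.63). Their receptor's level overlapped between genotypes, as given above.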

How the data were processed

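Total RNA of 4 pools (4 ng each, per the labels) was labelled with Cy3 and hybridised to 4 one-colour Agilent arrays on 1 slide. Per the file headers, intensity values were extracted with Agilent Feature Extraction 10.7.3.1, which subtracts background and spatial trends within an array and does not scale arrays to each other. The value table that the authors deposited holds the same linear intensity, within 0.497%, uncentred and in the same direction. Over the 43379 non-control spots its medians were 22.9 and 25.2 in wild type and 15.9 and 36.8 in the null pools.

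From the processed signal, on the log2 scale, each array's 75th percentile over non-control spots was subtracted. Spots marked as outliers (83 to 104 per array) were left out, and spots of a probe were averaged. A probe was tested if it was well above background on both wild-type or both null arrays (22440 of 41174). The test was limma 3.58.1 (R 4.3.3, lmFit, eBayes, two-sided, Benjamini-Hochberg over these probes, threshold 0.05, no covariate), with 2 residual and 2.43 prior degrees of freedom. Python 3.11.15 with pandas 2.3.3 read the files. Accessions matched RefSeq names of GRCm38.p6 for 26888 probes. The files hold no mean signal, so normexp (offset 50) used the median signal. The script was tested on simulated data. Precision is limited by there being 2 arrays per genotype.

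The 34 genes and the lists were chosen with earlier results of these data known. Values by array are given for 13 defining genes, for those of the 34 at least 2-fold apart without overlap, and for their 5 widest and 3 narrowest ranges. The 2 genes with the smallest unadjusted p of each other leukocyte list are named, some by a difference or a fold bound alone. Of the 4 promoters planned (Tyrobp, Fcer1g, C1qa and Spi1) that of Fcer1g was matched, and 4 others were added after the values were seen. Protein sequences were not used here. Marker lists of endothelium, germ cells, gonadal soma, stroma, erythroid cells and other leukocytes were read in the same way. Of 10 erythroid genes 5 were tested, with a median difference of -0.03, and 11 stromal genes had a median of 0.44. Alternatives were 3 other scalings between arrays, normexp, the deposited table, 2 other filters, a variance trend, the replicate number as a block, second probes and each array left out, and, added after seeing the data, centring on these genes and leaving out Cd163, Cxcl16 and Sh2d1b1.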

Additional observations from a re-analysis of the deposited data

How the results depend on the processing

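With all arrays, the 5 genes that stood apart kept their direction under each setting run, except that Cd163 and Sh2d1b1 drop out where a probe must be measurable on every array. With spiked-in control probes as the scale, limma called 3 genes (Cd163, Cxcl16 and Sh2d1b1, all lower), with a median difference of -0.69 against -0.61 for all probes and 24 genes lower without overlap, and 146 of all probes were then called. Centring on these genes, chosen after seeing the data, called 1 gene (Cd163). With 1 array left out the median lay between -0.27 and -0.08, the count lower without overlap between 13 and 25, and no gene was called. One array alone is less likely to overlap than a pair, so such counts do not compare directly with those of all arrays. Further leukocyte genes were called 0 times under each setting run on them. Without Cd163, Cxcl16 and Sh2d1b1 the median of the other 31 genes was -0.12 and 10 were lower without overlap.

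Reversals were of small differences that no setting called. C1qa was 0.025 with quantile normalization, 0.0026 with the median of probes well above background, 0.0054 with normexp and 0.047 centred on these genes. Fcer1g was 0.0039 with quantile normalization and 0.011 centred on these genes. With spiked-in RNA Spi1 was -0.41, C1qb -0.52, Lyz2 -0.32 and Cd52 -0.45, as the whole array shifted. The second probe of Itgam was 0.24. With 1 array left out, the lowest and highest values were -0.17 and 0.45 for Spi1, -0.24 and 0.29 for C1qb, -0.12 and 0.59 for Lyz2, -0.30 and 0.13 for Csf1r, -0.28 and 0.27 for C1qa, -0.15 and 0.063 for Fcer1g, and -0.019 and 0.21 for Cd52. The cause was not tested.

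The labels do not say that a replicate number marks a shared litter or day, so the main test did not pair the samples. The deviations of same-numbered pools correlated at 0.066. With 2 pools per genotype, that value cannot show whether same-numbered pools shared a litter or day. With the replicate number as a block, 13 probes were called in place of 2, none of them among the 34 genes, whose median stayed at -0.14. With normexp, which here also starts from the median in place of the processed signal, the differences of Cd163, Cxcl16 and Sh2d1b1 lay between -0.79 and -0.50, and the cause was not tested.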
